A study of Mus musculus with 12 samples.

Results

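The Wnt and norrin pathway genes were followed in murine BrafV600E melanoma cells edited in the gene of 1 of 3 enzymes of prostaglandin synthesis. Members were chosen by gene name. They were all genes named Wnt, Fzd, Sfrp, Dkk, or Rspo with a number, *Nkd1*, *Nkd2*, *Axin1*, *Axin2*, *Lrp5*, *Lrp6*, *Lgr4*, *Lgr5*, *Lgr6*, and the single genes *Ndp*, *Tcf7*, *Tcf7l1*, *Tcf7l2*, *Lef1*, *Ctnnb1*, *Rnf43*, *Znrf3*, and *Porcn*. This rule found 59 of the 30705 gene names measured. RNA was sequenced in 12 samples, 3 from each of 4 lines. These were scramble control cells and cells edited with CRISPR/CAS9 in *ptgs1*, which codes for COX-1 (*ptgs1*-KO), in *ptgs2*, which codes for COX-2 (*ptgs2*-KO), or in *ptges*, which codes for mPGES-1 (*ptges*-KO). All 4 lines came from the same C57BL/6 melanoma line, whose genotype was Braf+/LSL-V600E;Tyr::CreERT2+/o;p16INK4a-/-, so the Braf mutation, switched on by a Cre under the tyrosinase promoter, and the loss of p16INK4a were shared by controls and knockouts. The samples of a line were subclones grown out by limiting dilution, and a feature of the line as grown and an effect of its edited gene cannot be told apart. The p-values therefore measure the spread between subclones within a line, pooled over the 4 lines, and not the spread between separately edited lines.

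Wnt ligands are secreted proteins that carry a lipid, which the acyltransferase Porcn attaches. They bind Frizzled receptors and the co-receptors Lrp5 and Lrp6, which stops the destruction of beta-catenin (*Ctnnb1*) by a complex built on Axin, so that beta-catenin can join the TCF/LEF factors at target genes. Norrin, the product of *Ndp*, is not a Wnt but acts through the same route by binding Fzd4 with Lrp5 or Lrp6 and the tetraspanin Tspan12. Several Dkk proteins can block the LRP co-receptors, and Sfrp proteins catch ligands. R-spondins act through Lgr receptors to keep Frizzled receptors at the membrane against the ligases Rnf43 and Znrf3. Axin2, Nkd1, and Lef1 are themselves switched on by the pathway in many tissues. In the melanocyte lineage Wnt signals take part in the formation of pigment cells from the neural crest.

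The deposited values were RPKM, reads per kilobase of transcript relative to the mapped reads of a sample, and summed to between 878504 and 903881 per sample. The depth estimated from the smallest steps of the values was 13.4 to 17.0 M reads, at which 1 read in a transcript of 1 kb was worth 0.0590 to 0.0749 RPKM. *Ptgs1* was at 14.30 to 16.91 RPKM in *ptgs1*-KO samples against 141.65 to 164.17 in scramble samples, *Ptgs2* at 76.13 to 84.62 in *ptgs2*-KO samples against 748.76 to 776.77, and *Ptges* at 34.83 to 41.01 in *ptges*-KO samples against 75.01 to 79.82, so each target was low in its own line and that of *ptges*-KO cells the least so. In *ptgs1*-KO cells *Ptges* (51.50 to 56.94 RPKM) and *Ptgs2* (501.52 to 668.29 RPKM) were also lower than in scramble cells (-0.50 and -0.36 on the log2 scale, adjusted p = 0.0011 and 0.0386). The *ptgs1*-KO replicate 3 stood apart in that 1 transcript took 8.24% of its summed values, where the highest gene of the other samples took 2.84% to 4.28%. Without this library the calls against scramble cells on *Wnt7b* and *Apcdd1* were lost, and no other call on the 25 members tested or on the 6 other pathway genes described below was. Markers that define pigment cells were mostly at or near 0 in these melanoma cells. *Dct*, *Tyrp1*, *Mlana*, *Sox10*, *Kit*, and *Slc45a2*, 6 of the 12 listed, were at 0 in all samples, and only *Mitf* and *Gpnmb* had a mean of at least 1 RPKM. *Gpnmb* was at 15.12 to 16.58 RPKM in scramble samples, 47.24 to 53.36 in *ptgs1*-KO, 7.64 to 9.85 in *ptgs2*-KO, and 3.33 to 3.61 in *ptges*-KO samples and carried most of the summed level of the 12 markers (19.35 to 20.77, 50.54 to 58.61, 11.08 to 12.50, and 5.32 to 6.81 RPKM). The other 11 markers summed to 4.19 to 4.23 RPKM in scramble samples and overlapped with them in *ptgs1*-KO samples (3.17 to 5.25), while *ptgs2*-KO (2.65 to 4.04) and *ptges*-KO samples (1.96 to 3.37) lay lower. The 6 fibroblast markers summed to 8.34 to 8.89 RPKM in scramble, 10.82 to 12.50 in *ptgs1*-KO, 3.78 to 4.98 in *ptgs2*-KO, and 5.03 to 6.01 in *ptges*-KO samples, nearly all of it *Pdgfra*. Immune, endothelial, and epithelial markers summed to at most 2.14 RPKM in any sample. The part of these markers in the results below was not tested. As these are bulk samples, fewer cells that express a gene and less RNA of it per cell cannot be told apart.

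Of the 59 members, 25 averaged 1 RPKM or more in the 12 samples and were tested, and 34 did not. The 25 comprised 5 of 19 Wnt genes, *Ndp*, *Porcn*, 8 of 10 Frizzled genes, both LRP co-receptors, *Lgr4*, *Dkk2*, *Axin1*, *Znrf3*, and 4 of the 5 genes of beta-catenin and the TCF/LEF factors. None of the 4 R-spondin genes and none of the 4 Sfrp genes reached that level. Highest were *Ctnnb1* with a mean of 226 ± 15.8 RPKM (SD, n = 3) and *Dkk2* with 188 ± 6.12 RPKM in scramble cells. *Wnt10a* made up 65.4% to 73.5% of the summed RPKM of all Wnt genes in the 4 lines, and *Fzd7* 44.4% to 47.9% of that of all Frizzled genes.

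**Figure D1:**
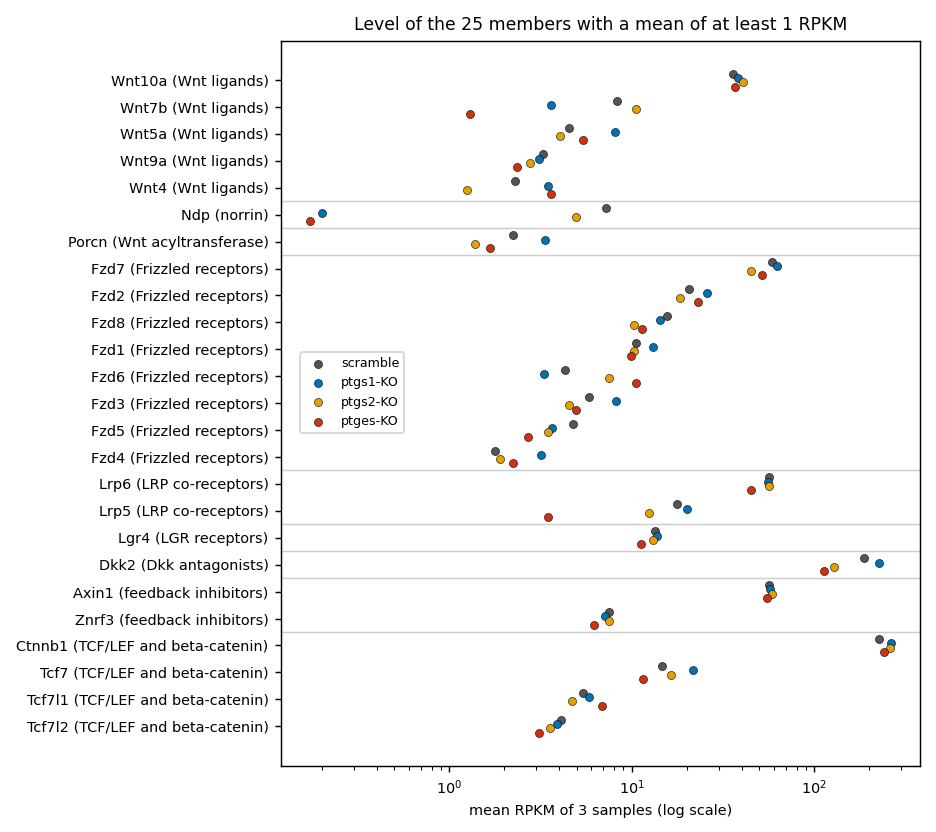
Mean RPKM of 3 samples (log axis) in each of the 4 lines, in 1 row per member with a mean of at least 1 RPKM, ordered by role. Most rows hold 4 close points, while *Ndp* is split between about 5 to 7 RPKM in scramble and *ptgs2*-KO cells and about 0.2 RPKM in the other two lines, and *Wnt7b* and *Lrp5* have a *ptges*-KO point far to the left.

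Fold changes below are differences of log2(RPKM + 1), a scale that understates the change of genes with low levels. A gene was called changed where its p from limma, adjusted by Benjamini and Hochberg's method over the 11282 genes tested, was under 0.05. Over the 4 lines, 14 of the 25 members (56%) passed the moderated F test, compared with 38.6% of all genes tested. In *ptgs1*-KO cells 4 members were higher and 2 lower than in scramble cells (24% of members against 9.26% of all genes, of which 4.65% higher and 4.61% lower). In *ptgs2*-KO cells 1 was higher and 5 were lower (24% against 11.1%, of which 5.97% higher and 5.17% lower). In *ptges*-KO cells 2 were higher and 7 lower (36% against 26.3%, of which 11.9% higher and 14.4% lower). Scaling moved these splits. In *ptgs1*-KO cells 7 of 9 changed members were higher with median ratio scaling and with quantile normalization, and in *ptges*-KO cells 2 of 9 and 3 of 9 were. Of all genes in *ptges*-KO cells, 1342 were called higher and 1627 lower as deposited, 1895 and 1827 with median ratio scaling, and 1870 and 1606 with quantile normalization, so that the excess of lower genes turned. Differences of at least 1 in size among these were those of *Ndp* and *Wnt7b* in *ptgs1*-KO cells, none in *ptgs2*-KO cells, and those of *Ndp*, *Wnt7b*, *Lrp5*, and *Fzd6* in *ptges*-KO cells, where 1.24%, 0.984%, and 1.94% of all genes had such a difference. The samples of knockout and scramble cells did not overlap for 11, 11, and 10 of the 25 members, but neither did they for 26.9%, 35.1%, and 43.3% of all genes. The median difference of the 25 members was 0.09, -0.15, and -0.23 in the 3 knockouts, beside 0.01, 0.01, and -0.03 over all genes tested. These comparisons share the scramble samples. The list itself was not tested.

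**Figure D2:**
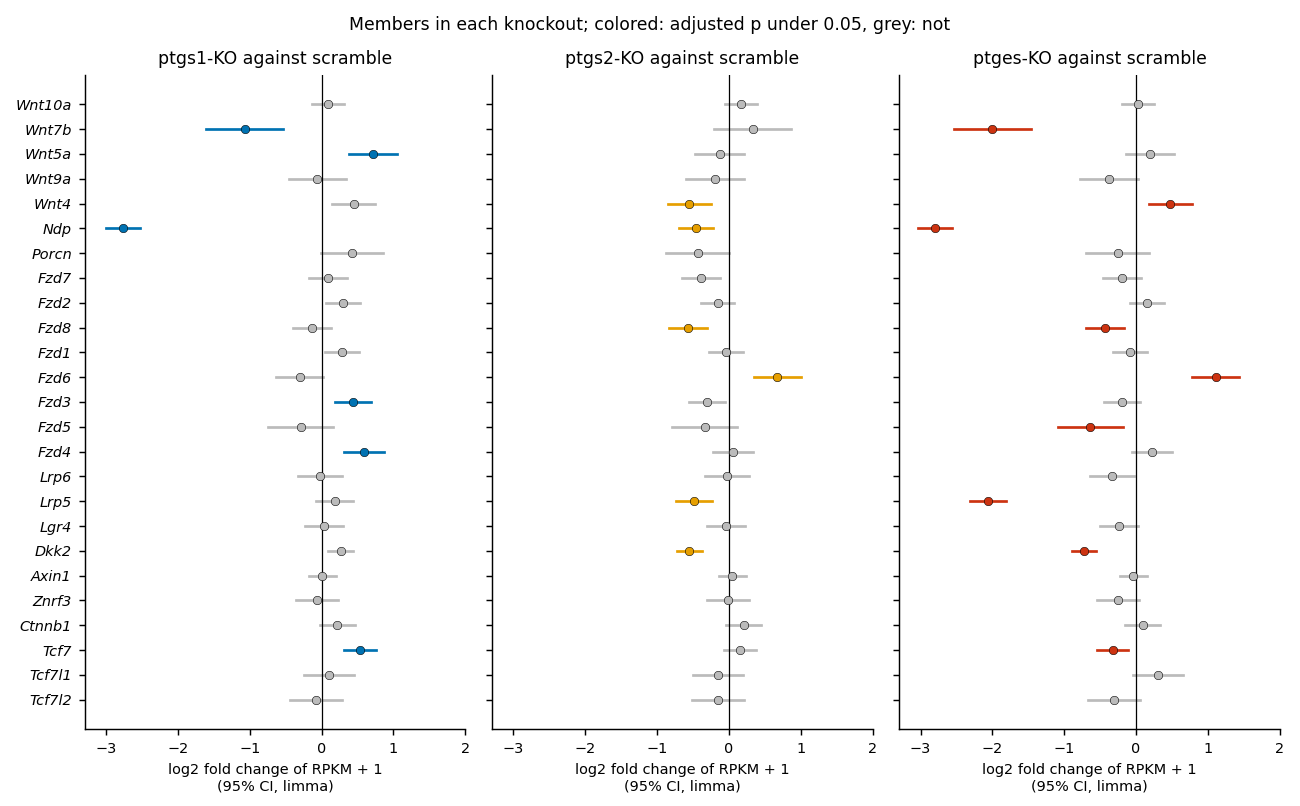
Difference of log2(RPKM + 1) from scramble cells with its 95% confidence interval from limma (x axis) for the 25 members tested, in 1 panel per knockout, with members that passed the adjusted p of 0.05 colored and the others grey. *Ndp* lies near -2.8 in *ptgs1*-KO and *ptges*-KO cells, *Lrp5* and *Wnt7b* near -2 in *ptges*-KO cells, and the intervals of *Wnt10a*, *Axin1*, and *Ctnnb1* cross 0 in all 3 panels.

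*Ndp* had the largest differences of all members. Its level was 6.78, 6.75, and 8.08 RPKM in scramble samples, 0.26, 0.17, and 0.17 in *ptgs1*-KO samples, 4.87, 5.05, and 5.00 in *ptgs2*-KO samples, and 0.21, 0.14, and 0.17 in *ptges*-KO samples. The *ptgs1*-KO and *ptges*-KO samples were all far under the others and overlapped each other, while the *ptgs2*-KO samples lay under all scramble samples. The mean fell to 2.78% of that of scramble cells in *ptgs1*-KO cells (log2 difference -2.77 ± 0.11 SE, adjusted p = 3.79e-09) and to 2.41% in *ptges*-KO cells (-2.80 ± 0.11, adjusted p = 2.04e-09). These calls remained under every alternative tried. At the estimated depths the *Ndp* values correspond to about 4.60 to 249 reads per sample. In *ptgs2*-KO cells the mean was 69.04% of that of scramble cells (-0.45 ± 0.11, adjusted p = 0.0171), a call lost with a pseudocount of 0.1 (adjusted p = 0.128) or without scramble replicate 3 or any 1 of the *ptgs2*-KO replicates (adjusted p = 0.0512 to 0.0751).

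*Ndp* lies on the X chromosome at chrX:16885521-16911774 (GRCm38, minus strand). The 250 bases upstream of its start are shown because this gene had the widest range of levels, together with those of *Dkk2*, the most abundant secreted member, and of *Wnt4*, which moved in opposite directions in 2 knockouts. The sequences are those of RefSeq on GRCm38.p6, each given 5′ to 3′ on the strand of its gene. Their positions are chrX:16911775-16912024 (minus strand), chr3:132085042-132085291 (plus strand), and chr4:137277385-137277634 (plus strand). The last 26 bases of the *Dkk2* window lie inside the extent RefSeq gives the gene, since the window ends at a start site downstream of that extent's first base.
*Ndp*: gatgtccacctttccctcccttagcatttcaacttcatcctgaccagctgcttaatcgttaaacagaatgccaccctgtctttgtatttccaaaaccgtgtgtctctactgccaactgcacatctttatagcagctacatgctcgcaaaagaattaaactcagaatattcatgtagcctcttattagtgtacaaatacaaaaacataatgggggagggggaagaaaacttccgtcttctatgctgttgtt
*Dkk2*: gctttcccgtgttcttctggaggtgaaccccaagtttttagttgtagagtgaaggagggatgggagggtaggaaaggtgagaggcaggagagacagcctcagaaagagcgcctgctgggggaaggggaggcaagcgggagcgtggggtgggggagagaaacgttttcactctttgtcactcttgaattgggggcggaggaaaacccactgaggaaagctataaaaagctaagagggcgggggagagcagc
*Wnt4*: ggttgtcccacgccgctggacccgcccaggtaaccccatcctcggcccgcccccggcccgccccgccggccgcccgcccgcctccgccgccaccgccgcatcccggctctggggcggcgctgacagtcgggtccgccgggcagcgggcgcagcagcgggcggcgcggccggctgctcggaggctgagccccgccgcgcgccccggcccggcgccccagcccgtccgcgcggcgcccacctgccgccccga
The share of G and C was 41.2% for *Ndp*, 55.6% for *Dkk2*, and 85.2% for *Wnt4*. TCAAAG, the core of the sites that TCF/LEF factors bind, was searched on both strands, as were TGACG, a short form of the cyclic AMP response element, and TGANTCA, the AP-1 site. No motif contains another. None of the 3 windows had a match, so no letters are in capitals. Of all 32851 such windows of the mouse, 13.8% held TCAAAG, 17.8% TGACG, and 6.75% TGANTCA, and of the 49 windows matched to 39 members, 5, 7, and 1 did.

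Among the other partners of norrin, *Fzd4*, which codes for its receptor, was at 1.51, 1.73, and 2.13 RPKM in scramble samples and 3.17, 3.72, and 2.71 in *ptgs1*-KO samples, which did not overlap. It was at 1.87, 2.07, and 1.74 RPKM in *ptgs2*-KO samples and 2.51, 2.23, and 1.98 in *ptges*-KO samples. *Fzd4* was higher in *ptgs1*-KO than in scramble cells (0.59 ± 0.13, adjusted p = 0.0117), where *Ndp* was lower, but the call was lost without scramble replicate 1 or *ptgs1*-KO replicate 2 (adjusted p = 0.0529 and 0.0588). *Tspan12* was listed at 0 in all samples.

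Both LRP co-receptors were expressed, and only *Lrp5* changed. *Lrp5* (chr19:3584825-3686585) was at 16.30, 17.22, and 19.59 RPKM in scramble samples, 22.19, 18.80, and 19.59 in *ptgs1*-KO samples, 13.82, 12.49, and 10.80 in *ptgs2*-KO samples, and 4.04, 3.31, and 3.12 in *ptges*-KO samples. The *ptges*-KO samples lay under all others, the *ptgs2*-KO samples came next, and scramble and *ptgs1*-KO samples overlapped. The mean fell to 19.7% of that of scramble cells in *ptges*-KO cells (-2.06 ± 0.12, adjusted p = 8.14e-08) and to 69.9% in *ptgs2*-KO cells (-0.49 ± 0.12, adjusted p = 0.0175). Set against *ptgs2*-KO cells, *ptges*-KO cells had less *Lrp5* (-1.57 ± 0.12, adjusted p = 1.01e-06). The call in *ptgs2*-KO cells was lost without scramble replicate 3 or *ptgs2*-KO replicate 3 (adjusted p = 0.0750 to 0.0770). The *Lrp5* transcript is 8893 bases long, and *ptges*-KO replicates 2 and 3 had the lowest values of long against short transcripts of all samples (-0.24 and -0.33 on the log2 scale). With trends with transcript length and GC content removed, an alternative chosen after seeing the data, the *Lrp5* difference in *ptges*-KO cells was -1.84 (adjusted p = 2.83e-09). *Lrp6* was at 38.73 to 67.45 RPKM over the 12 samples and passed no test.

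Of the 5 Wnt genes tested, *Wnt7b*, *Wnt5a*, and *Wnt4* changed in at least 1 knockout against scramble cells, and *Wnt10a* and *Wnt9a* in none. *Wnt7b* (chr15:85535437-85581821) codes for a ligand that can act through beta-catenin. It was at 8.11, 6.32, and 10.56 RPKM in scramble samples, 5.88, 2.89, and 2.11 in *ptgs1*-KO samples, 11.84, 8.83, and 11.18 in *ptgs2*-KO samples, and 1.49, 1.02, and 1.38 in *ptges*-KO samples. All *ptges*-KO samples were under all *ptgs1*-KO samples, these under all scramble samples, and the *ptgs2*-KO samples overlapped with scramble samples. The mean fell to 15.6% of that of scramble cells in *ptges*-KO cells (-2.003 ± 0.25, adjusted p = 9.45e-05) and to 43.5% in *ptgs1*-KO cells (-1.07 ± 0.25, adjusted p = 0.0152). The latter call was lost without scramble replicate 3, *ptgs1*-KO replicate 2, or *ptgs1*-KO replicate 3 (adjusted p = 0.0567 to 0.0689). *Wnt7b* was lower in *ptges*-KO than in *ptgs1*-KO cells (-0.93 ± 0.25, adjusted p = 0.0125), a call lost without *ptges*-KO replicate 2 (adjusted p = 0.0519).

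*Wnt5a* (chr14:28504543-28527448), whose product is best known for signals that do not pass through beta-catenin, was at 4.81, 4.47, and 4.27 RPKM in scramble samples and 9.29, 8.52, and 6.59 in *ptgs1*-KO samples. It was at 4.74, 4.01, and 3.45 RPKM in *ptgs2*-KO samples and 6.83, 4.40, and 4.91 in *ptges*-KO samples, which both overlapped with scramble samples. The rise in *ptgs1*-KO cells was 1.80-fold in the mean (0.72 ± 0.16, adjusted p = 0.0108), and the call was lost without *ptgs1*-KO replicate 1 (adjusted p = 0.0511). *Wnt5a* was also lower in *ptgs2*-KO than in *ptgs1*-KO cells (-0.85 ± 0.16, adjusted p = 0.00148).

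*Wnt4* (chr4:137277635-137299501) was at 2.49, 2.24, and 2.15 RPKM in scramble samples, 3.74, 3.62, and 3.10 in *ptgs1*-KO samples, 1.17, 1.45, and 1.13 in *ptgs2*-KO samples, and 4.48, 3.60, and 2.80 in *ptges*-KO samples. The *ptgs2*-KO samples lay under and the *ptgs1*-KO and *ptges*-KO samples over all scramble samples. *Wnt4* fell in *ptgs2*-KO cells (-0.55 ± 0.14, adjusted p = 0.0211) and rose in *ptges*-KO cells (0.48 ± 0.14, adjusted p = 0.0223), while the difference in *ptgs1*-KO cells did not pass the test (0.44 ± 0.14, adjusted p = 0.0631). Each of the 2 calls was lost with 4 of the 12 libraries left out in turn (adjusted p = 0.0558 to 0.0822 and 0.0598 to 0.0907). Those were scramble replicates 1 and 2 and *ptgs2*-KO replicates 1 and 3 for the fall, and scramble replicates 2 and 3 and *ptges*-KO replicates 1 and 2 for the rise. Between the *ptges*-KO and the *ptgs2*-KO line *Wnt4* differed by 1.03 ± 0.14 (adjusted p = 2.03e-04) and remained called under every alternative tried.

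*Wnt10a* was at 31.93 to 44.06 RPKM and *Wnt9a* at 1.75 to 3.68 RPKM over the 12 samples. *Porcn*, needed for the secretion of Wnt proteins, was at 3.00, 2.24, and 1.49 RPKM in scramble samples, 4.55, 2.88, and 2.61 in *ptgs1*-KO samples, 1.27, 0.99, and 1.88 in *ptgs2*-KO samples, and 1.88, 1.53, and 1.60 in *ptges*-KO samples. Scramble samples spanned the range between the knockouts, and no knockout was called different from scramble cells. The differences were 0.42, -0.44, and -0.26 (each ± 0.20, adjusted p = 0.230, 0.187, and 0.389) in the *ptgs1*, *ptgs2*, and *ptges* knockouts. *Porcn* was lower in *ptgs2*-KO (-0.86 ± 0.20, adjusted p = 0.00764) and in *ptges*-KO cells (-0.68 ± 0.20, adjusted p = 0.0226) than in *ptgs1*-KO cells. The second of these calls was lost without *ptgs1*-KO replicate 1 or *ptges*-KO replicate 2 or 3 (adjusted p = 0.0639 to 0.0983), and with quantile normalization (adjusted p = 0.0891).

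**Figure D3:**
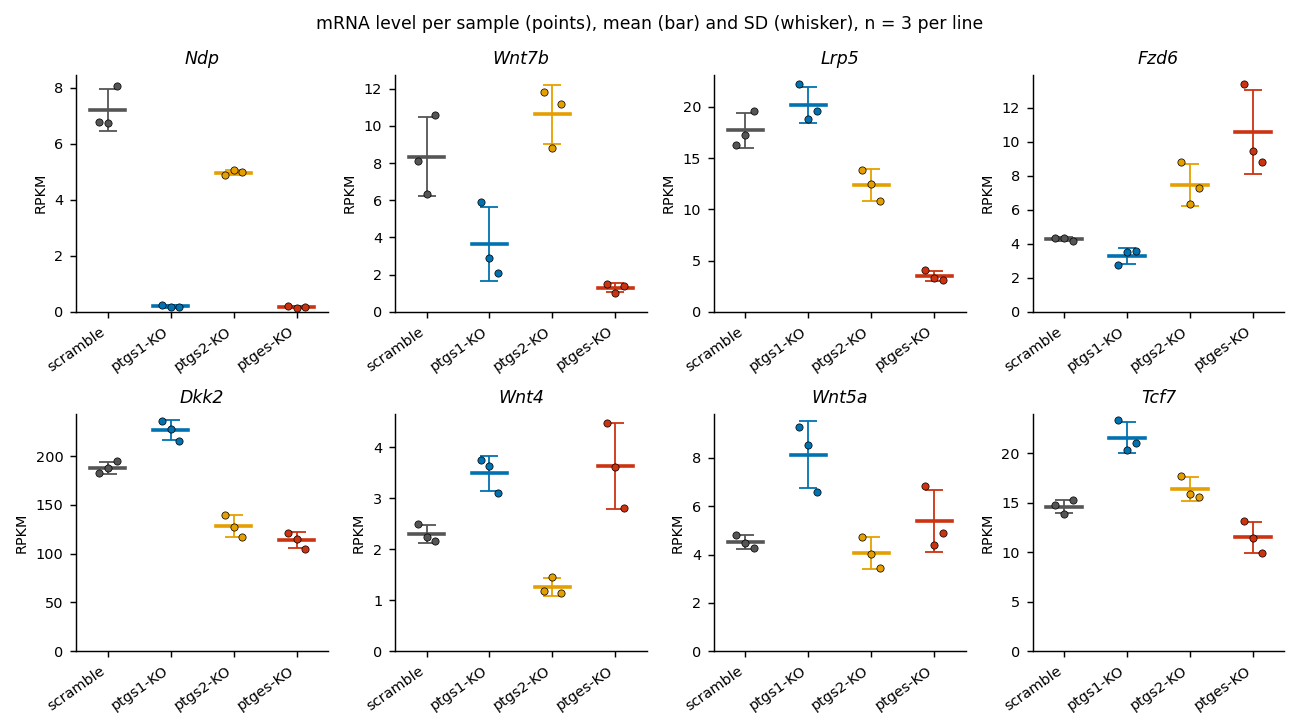
RPKM of 8 members in each sample (points), with the mean (horizontal bar) and the SD (whisker) of the 3 samples of each line. *Ndp* is near 0 in all *ptgs1*-KO and *ptges*-KO samples. *Wnt7b* and *Lrp5* are lowest in *ptges*-KO samples, *Fzd6* is highest there, and *Tcf7* is highest in *ptgs1*-KO samples. The mean of *Wnt5a* is highest in *ptgs1*-KO cells, though *ptges*-KO replicate 1 (6.83 RPKM) lies above *ptgs1*-KO replicate 3 (6.59 RPKM).

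Frizzled genes differed in direction among themselves. *Fzd6* (chr15:39006149-39038192), whose product is known for planar cell polarity, was at 4.34, 4.34, and 4.17 RPKM in scramble samples, 2.76, 3.52, and 3.60 in *ptgs1*-KO samples, 8.80, 6.36, and 7.27 in *ptgs2*-KO samples, and 13.41, 9.47, and 8.82 in *ptges*-KO samples. Every *ptges*-KO sample was higher than every *ptgs2*-KO sample, though the closest were at 8.82 and 8.80 RPKM. The difference between these knockouts did not pass the test (0.44 ± 0.15, adjusted p = 0.0664), and did with trends with length and GC content removed (0.45, adjusted p = 0.0369). All *ptgs2*-KO samples were higher than all scramble samples. The mean rose 2.47-fold in *ptges*-KO cells (1.11 ± 0.15, adjusted p = 2.10e-04) and 1.75-fold in *ptgs2*-KO cells (0.67 ± 0.15, adjusted p = 0.0123), and the second call was lost without *ptgs2*-KO replicate 1 (adjusted p = 0.0553). No other Frizzled gene was called higher in these 2 knockouts, except that *Fzd2* was in *ptges*-KO cells with trends with length and GC content removed (0.31, adjusted p = 0.0324).

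*Fzd8* moved the other way. It was at 15.02, 16.36, and 15.65 RPKM in scramble samples, 16.05, 15.56, and 11.43 in *ptgs1*-KO samples, 10.41, 11.13, and 9.21 in *ptgs2*-KO samples, and 12.28, 10.62, and 11.15 in *ptges*-KO samples. All samples of the last 2 lines were under all scramble samples, and *ptgs1*-KO samples overlapped with them. *Fzd8* fell in *ptgs2*-KO (-0.57 ± 0.12, adjusted p = 0.00908) and in *ptges*-KO cells (-0.43 ± 0.12, adjusted p = 0.0184), and the second call was lost without scramble replicate 2 or 3 or *ptges*-KO replicate 2 or 3 (adjusted p = 0.0514 to 0.0734). *Fzd5* was at 3.24, 5.65, and 5.36 RPKM in scramble samples and 2.99, 1.76, and 3.31 in *ptges*-KO samples, which overlapped (-0.64 ± 0.21, adjusted p = 0.0390). That call was lost under 5 other settings and without scramble replicate 2 or 3, *ptgs2*-KO replicate 2, or *ptges*-KO replicate 2 (adjusted p = 0.0501 to 0.169).

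In *ptgs1*-KO cells 2 Frizzled genes, *Fzd3* and *Fzd4*, were higher than in scramble cells. *Fzd3* (chr14:65192441-65262463), another receptor of planar cell polarity, was at 5.22, 5.92, and 6.34 RPKM in scramble samples, 8.35, 9.21, and 7.12 in *ptgs1*-KO samples, 4.77, 4.82, and 4.02 in *ptgs2*-KO samples, and 5.37, 4.70, and 4.85 in *ptges*-KO samples. Its difference in *ptgs1*-KO cells was 0.43 ± 0.12 (adjusted p = 0.0330) and was lost with no filter, with only the 2 groups in the fit, and without scramble replicate 1 or 2 or *ptgs1*-KO replicate 1 or 2 (adjusted p = 0.0787 to 0.138 without a library).

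The knockouts also differed from each other. In *ptgs2*-KO cells 3 members were higher and 12 lower than in *ptgs1*-KO cells (60% against 23.6% of all genes, of which 12.1% higher and 11.6% lower). Among these were 7 of the 8 Frizzled genes tested, 6 of them lower and 1, *Fzd6*, higher. Differences of at least 1 in size were those of *Ndp* and *Wnt7b*, which 2.46% of all genes had. *Fzd7*, the most abundant Frizzled gene, was at 57.29, 60.25, and 59.19 RPKM in scramble samples, 69.64, 62.95, and 55.75 in *ptgs1*-KO samples, 50.20, 45.37, and 39.63 in *ptgs2*-KO samples, and 62.32, 45.04, and 48.21 in *ptges*-KO samples. It was lower in *ptgs2*-KO than in *ptgs1*-KO cells (-0.47 ± 0.12, adjusted p = 0.0134), and with trends with length and GC content removed also lower than in scramble cells (-0.34, adjusted p = 0.036). The same knockouts differed in *Fzd2*, with 20.42, 20.95, and 20.72 RPKM in scramble, 29.35, 26.73, and 21.49 in *ptgs1*-KO, 18.73, 19.62, and 17.10 in *ptgs2*-KO, and 25.02, 21.02, and 23.56 in *ptges*-KO samples (-0.45 ± 0.11, adjusted p = 0.00830). With the trends removed, *Fzd2* was also higher in *ptges*-KO cells than in scramble (adjusted p = 0.0324) and in *ptgs2*-KO cells (adjusted p = 0.0157). The *Fzd7* call between *ptgs2*-KO and *ptgs1*-KO cells was lost without *ptgs1*-KO replicate 1 or *ptgs2*-KO replicate 3 (adjusted p = 0.0563 to 0.0636). The *Fzd8* call between them (-0.44 ± 0.12, adjusted p = 0.0186) was lost with only the 2 groups in the fit (adjusted p = 0.0608). It was also lost without *ptgs1*-KO replicate 1 or 2 or *ptgs2*-KO replicate 3 (adjusted p = 0.0731 to 0.0779). *Fzd1* was at 10.15, 11.28, and 10.33 RPKM in scramble, 14.50, 12.89, and 11.96 in *ptgs1*-KO, 11.31, 10.80, and 8.88 in *ptgs2*-KO, and 10.80, 9.33, and 9.58 in *ptges*-KO samples. It was lower in *ptgs2*-KO (-0.32 ± 0.11, adjusted p = 0.0483) and in *ptges*-KO (-0.37 ± 0.11, adjusted p = 0.0205) than in *ptgs1*-KO cells, and both calls were lost with trends with length and GC content removed (-0.22 and -0.20, adjusted p = 0.0970 and 0.125). The first was also lost with no filter, with quantile normalization, with only the 2 groups in the fit, and without any 1 of 9 libraries (adjusted p = 0.0561 to 0.190), which were all but *ptgs1*-KO replicate 3, *ptgs2*-KO replicate 1, and *ptges*-KO replicate 1. The second was lost without *ptgs1*-KO replicate 1 or *ptges*-KO replicate 2 or 3 (adjusted p = 0.0665 to 0.0816). Between *ptges*-KO and *ptgs1*-KO cells 1 member was higher and 9 were lower in the first (40% against 30.2%, of which 13.2% higher and 17% lower), with *Lrp5* and *Fzd6* different by at least 1 in size (3.2% of all genes). Among the 9, the *Fzd4* call (-0.37 ± 0.13, adjusted p = 0.0460) was lost in 14 of 21 settings (adjusted p up to 0.180). The *Wnt5a* call (-0.52 ± 0.16, adjusted p = 0.0222), between overlapping groups, was lost in 6 (adjusted p up to 0.104). In the *ptges*-KO line 1 member was higher and 4 were lower than in the *ptgs2*-KO line (20% against 16.6%, of which 6.76% higher and 9.84% lower), a share near that of all genes. With median ratio scaling or quantile normalization 3 of 7 were higher. Of the 5, the differences of *Ndp*, *Wnt7b*, *Lrp5*, and *Wnt4* were at least 1 in size (1.73% of all genes).

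*Dkk2* was the only Dkk gene that averaged 1 RPKM or more. It codes for a secreted protein that binds Lrp5 and Lrp6 and lies at chr3:132085266-132180304. Its level was 182.42, 187.70, and 194.62 RPKM in scramble samples, 236.29, 227.28, and 215.71 in *ptgs1*-KO samples, 139.46, 127.73, and 117.42 in *ptgs2*-KO samples, and 121.05, 115.09, and 104.67 in *ptges*-KO samples. All *ptgs1*-KO samples were above and all samples of the other knockouts below the scramble samples, and the *ptgs2*-KO and *ptges*-KO samples overlapped. *Dkk2* fell to 68.1% of the scramble mean in *ptgs2*-KO cells (-0.55 ± 0.08, adjusted p = 7.85e-04) and to 60.3% in *ptges*-KO cells (-0.73 ± 0.08, adjusted p = 3.6e-05). The difference in *ptgs1*-KO cells did not pass the test (0.26 ± 0.08, adjusted p = 0.0584). It did with trends with length and GC content removed (0.27, adjusted p = 0.0305), the alternative chosen after seeing the data. The order of the 4 lines, from *ptgs1*-KO through scramble and *ptgs2*-KO to *ptges*-KO cells, was also that of *Gpnmb*. Of the members tested, *Lrp5*, *Fzd1*, and *Lgr4* had means in this order as well. Among the other pathway genes described below, *Notum*, *Ror2*, and *Tbx3* did. Further listed pathway genes, such as *Dvl1*, *Btrc*, *Daam1*, and *Bcl9l*, also had it. The share of all genes with this order was not counted, so it does not set these genes apart. Other melanocyte markers with a level to compare did not follow this order. *Mitf* was at 2.68 RPKM in scramble cells and 2.54, 2.23, and 1.75 in the *ptgs1*, *ptgs2*, and *ptges* knockouts. *Tyr* was at 0.98 RPKM against 0.71, 0.70, and 0.41, and both were highest in scramble cells. *Pmel* was at 0.54 RPKM against 0.54, 0.36, and 0.64 and was highest in *ptges*-KO cells.

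*Tcf7* (chr11:52246527-52283383), which codes for the TCF/LEF factor TCF-1, changed in opposite directions in 2 knockouts. It was at 14.71, 13.88, and 15.21 RPKM in scramble samples, 23.29, 20.33, and 21.02 in *ptgs1*-KO samples, 17.73, 15.82, and 15.59 in *ptgs2*-KO samples, and 13.10, 11.42, and 9.95 in *ptges*-KO samples. No *ptgs1*-KO sample overlapped with another line, and every *ptges*-KO sample was under all others. *Tcf7* rose 1.48-fold in the mean in *ptgs1*-KO cells (0.53 ± 0.10, adjusted p = 0.00520) and fell in *ptges*-KO cells (-0.33 ± 0.10, adjusted p = 0.0320). The fall was lost with only the 2 groups in the fit (adjusted p = 0.0563) and without scramble replicate 1 or 3 or *ptges*-KO replicate 2 or 3 (adjusted p = 0.0808 to 0.135). Between *ptges*-KO and *ptgs1*-KO cells the difference was -0.86 ± 0.10 (adjusted p = 4.01e-05). The file's *Tcf7* gene overlaps with *Skp1* in the annotation, as *Wnt7b*, *Lrp5*, and *Fzd6* do with noncoding genes, and how shared reads were counted is not given in the sources used here.

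Other genes of the core relay were not called changed in the values as deposited, which at 3 samples per line does not show equal levels. *Ctnnb1* was at 208.37 to 292.71 RPKM over the 12 samples, *Tcf7l1* at 4.20 to 7.64, *Tcf7l2* at 2.68 to 5.18, *Axin1* at 52.35 to 64.82, *Znrf3* at 5.41 to 9.29, and *Lgr4* at 10.11 to 14.72, and none of these passed the test in any of the 6 comparisons of the values as deposited. The 9 members without a call there were these 6 with *Lrp6*, *Wnt10a*, and *Wnt9a*. With trends with length and GC content removed, *Tcf7l1* was called higher in *ptges*-KO cells than in scramble (0.47, adjusted p = 0.0402) and *ptgs2*-KO cells (0.51, adjusted p = 0.0381), and *Wnt10a* higher in *ptgs2*-KO than in *ptgs1*-KO cells (0.30, adjusted p = 0.0376).

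The 34 members under the filter reached at most 0.53 RPKM in any sample, and 10 of them were at 0 in all 12. They included *Axin2*, a general target of the pathway, and *Lef1*, with at most 0.33 and 0.22 RPKM, and *Nkd1*, at 0 throughout. Among the Wnt genes *Wnt2b* was highest at up to 0.49 RPKM, and *Wnt3a*, *Wnt8a*, and *Wnt8b* were at 0. *Rspo1*, *Rspo2*, *Rspo4*, *Dkk1*, *Dkk4*, and *Fzd10* were at 0 as well. At the estimated depths the members with the most reads under the filter, *Wnt2b* and *Axin2*, had at most about 23.9 and 21.1 reads in a sample. Such genes were tested only in the alternative with no filter, where 0, 1, and 6 of the 24 not at 0 were called in the *ptgs1*, *ptgs2*, and *ptges* knockouts against scramble cells (6.36%, 7.04%, and 16.1% of all genes in that alternative). Those called were *Fzd9*, lower in *ptgs2*-KO and *ptges*-KO cells, and *Wnt2b*, lower, and *Rspo3*, *Rnf43*, *Lef1*, and *Wnt7a*, higher, in *ptges*-KO cells, with differences of -0.43 to 0.20.

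Other genes of the pathway were taken from a list of secretion factors, further secreted inhibitors and cofactors, other receptors, cytoplasmic and nuclear components, and target genes. Of 60 tested, 3 were higher and 4 lower in *ptgs1*-KO, 2 higher and 8 lower in *ptgs2*-KO, and 5 higher and 14 lower in *ptges*-KO cells than in scramble cells (11.7%, 16.7%, and 31.7% called, near the 9.26%, 11.1%, and 26.3% of all genes). The 20 genes of the cytoplasmic relay gave 0, 1, and 3 calls and the 15 nuclear cofactors 0, 1, and 0. Of the 13 target genes 1, 2, and 8 were called in the *ptgs1*, *ptgs2*, and *ptges* knockouts (7.69%, 15.4%, and 61.5%), and the 8 were 4 higher and 4 lower. The 6 genes with an absolute difference of at least 1 in a knockout against scramble cells were *Apcdd1*, *Notum*, *Gpc4*, *Ror2*, *Ptk7*, and *Tbx3*.

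*Apcdd1*, a membrane inhibitor of Wnt signals, was at 317.60, 321.69, and 322.63 RPKM in scramble samples, 278.67, 256.51, and 223.57 in *ptgs1*-KO samples, 212.15, 193.27, and 178.38 in *ptgs2*-KO samples, and 91.21, 76.78, and 82.58 in *ptges*-KO samples. The 4 lines did not overlap. *Apcdd1* was lower in *ptges*-KO (-1.93 ± 0.09, adjusted p = 2.30e-08), *ptgs2*-KO (-0.72 ± 0.09, adjusted p = 3.38e-04), and *ptgs1*-KO cells (-0.35 ± 0.09, adjusted p = 0.0360), though the last call was lost without any 1 of 7 libraries (adjusted p = 0.0508 to 0.101), namely the 3 scramble replicates, *ptgs1*-KO replicates 2 and 3, *ptgs2*-KO replicate 2, and *ptges*-KO replicate 3. *Notum*, an enzyme that removes the lipid from Wnt proteins, was at 9.76, 12.22, and 10.36 RPKM in scramble samples, 17.95, 18.64, and 12.87 in *ptgs1*-KO samples, 4.75, 7.94, and 7.18 in *ptgs2*-KO samples, and 3.21, 3.27, and 2.38 in *ptges*-KO samples. It fell in *ptges*-KO (-1.58 ± 0.18, adjusted p = 4.19e-05) and *ptgs2*-KO cells (-0.65 ± 0.18, adjusted p = 0.0336), the latter lost with no filter, with length and GC trends removed, and without any scramble replicate or *ptgs2*-KO replicate 1 or 3 (adjusted p = 0.0560 to 0.125 without a library).

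*Gpc4*, a heparan sulfate proteoglycan, and *Ror2*, a receptor for Wnt5a differed from scramble cells in opposite directions in *ptgs1*-KO and *ptges*-KO cells. *Gpc4* was at 18.28, 18.70, and 18.31 RPKM in scramble samples, 33.62, 34.27, and 32.66 in *ptgs1*-KO samples, 21.86, 21.44, and 17.38 in *ptgs2*-KO samples, and 8.84, 6.83, and 5.42 in *ptges*-KO samples. *Ror2* was at 8.99, 9.95, and 8.94 RPKM in scramble samples, 16.56, 14.78, and 13.60 in *ptgs1*-KO samples, 9.19, 8.50, and 7.21 in *ptgs2*-KO samples, and 2.58, 2.21, and 2.51 in *ptges*-KO samples. Both were highest in all *ptgs1*-KO samples and lowest in all *ptges*-KO samples. *Gpc4* differed from scramble cells by 0.83 ± 0.13 in *ptgs1*-KO (adjusted p = 0.00137) and -1.30 ± 0.13 in *ptges*-KO cells (adjusted p = 1.97e-05), and *Ror2* by 0.63 ± 0.11 (adjusted p = 0.00247) and -1.58 ± 0.11 (adjusted p = 5.33e-07).

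*Ptk7*, a receptor of planar cell polarity, was at 4.41, 4.76, and 5.37 RPKM in scramble samples, 5.46, 6.82, and 5.54 in *ptgs1*-KO samples, 15.58, 15.15, and 12.76 in *ptgs2*-KO samples, and 3.36, 2.86, and 3.23 in *ptges*-KO samples. It was highest in all *ptgs2*-KO samples (1.40 ± 0.12, adjusted p = 5.18e-06) and lowest in all *ptges*-KO samples (-0.49 ± 0.12, adjusted p = 0.00781), and the fall was lost with trends with length and GC content removed (-0.29, adjusted p = 0.0762). *Tbx3*, a transcription factor and target of beta-catenin, was at 3.26, 6.43, and 2.98 RPKM in scramble samples and 1.43, 1.54, and 1.17 in *ptges*-KO samples, which were all lower (-1.08 ± 0.19, adjusted p = 0.00157). It was at 6.95, 5.61, and 6.53 RPKM in *ptgs1*-KO and 2.27, 2.77, and 2.77 in *ptgs2*-KO samples.

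**Figure D4:**
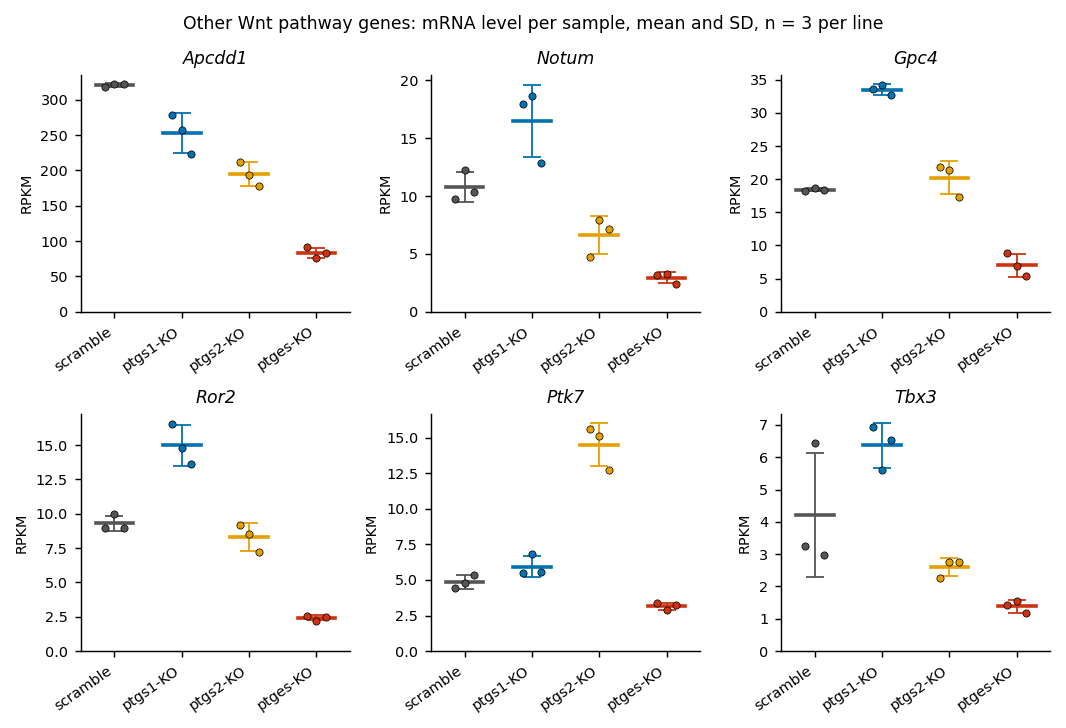
RPKM of the 6 other pathway genes in each sample (points), with the mean (horizontal bar) and the SD (whisker) of the 3 samples of each line. All 6 are lowest in *ptges*-KO samples, *Gpc4* and *Ror2* are highest in *ptgs1*-KO samples, and *Ptk7* is highest in *ptgs2*-KO samples.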

How the data were processed

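The 12 RNA-seq samples of murine BrafV600E melanoma cells were put into 4 groups of 3 by their labels. The values were deposited by the authors as RPKM to 2 decimals, made from 101 bp paired-end reads, and the submitters' processing notes name the build mm10. The aligner, the counter, and the annotation are not given in the sources used here. The labels and the paper name different RNA isolation kits, and the labels name 2 library kits, of which 1 is directional. The summed values varied little from sample to sample (CV 0.824%), so they may have been scaled to a fixed total rather than to mapped reads. No measured column was left out (0 unmapped).

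Genes that averaged 1 RPKM or more in the 12 samples were tested on log2(RPKM + 1) with limma 3.58.1 in R 4.3.3. A single linear model without covariates held all samples, and its variances were moderated along a trend with the mean. All 6 pairs of lines were compared, and p-values were adjusted over all 11282 genes tested. Values were prepared and figures drawn in Python 3.11.15 with matplotlib 3.10.9. Positions are those of RefSeq (GRCm38.p6) and transcript lengths those of GENCODE M21 (GRCm38), which gave a length for 100% of the members and 94.6% of the genes tested. Depth was estimated from the smallest step of value times length in transcripts of at most 1500 bases. It was least certain for *ptgs1*-KO replicate 1. Whole reads were not recovered for all genes, so no counting intervals are given. Long and short transcripts are those over 6000 and under 2000 bases.

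The members, the list of other pathway genes, and the marker lists were chosen with earlier results of these data known. Members were named with all their values where a call was made and the groups did not overlap, and other pathway genes where the absolute log2 difference from scramble cells was at least 1. Every result was recomputed with a pseudocount of 0.1, without the filter, with the filter on the highest group mean, with median ratio scaling, with quantile normalization, with the replicate number as a block, on only the 2 groups compared, without the variance trend, with each sample left out in turn, and with a fold change limit. An alternative chosen after seeing the data removed dependence on transcript length and GC by loess (span 0.3). All tests were first tried on simulated data.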

Additional observations from a re-analysis of the deposited data

Results flagged for a closer look

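5 genes were flagged by a rule that required calls in opposite directions in 2 knockouts and a limma call on their difference. The called differences below are thus part of the rule and no further support. Both *Wnt4* calls against scramble cells and the falls of *Tcf7* and *Ptk7* in *ptges*-KO cells were each lost in an alternative given above. *Tcf7* was higher in *ptgs1*-KO (0.53) and lower in *ptges*-KO cells (-0.33) than in scramble cells, with a difference between the 2 knockouts of -0.86 ± 0.10 (adjusted p = 4.01e-05). *Wnt4* was lower in *ptgs2*-KO (-0.55) and higher in *ptges*-KO cells (0.48), with a difference of 1.03 ± 0.14 (adjusted p = 2.03e-04). *Gpc4* was higher in *ptgs1*-KO (0.83) and lower in *ptges*-KO cells (-1.30), with a difference of -2.13 ± 0.13 (adjusted p = 8.69e-08). For *Ror2* the values were 0.63, -1.58, and -2.22 ± 0.11 (adjusted p = 9.08e-09). *Ptk7* was higher in *ptgs2*-KO (1.40) and lower in *ptges*-KO cells (-0.49), with a difference of -1.90 ± 0.12 (adjusted p = 1.68e-07). These differences between knockouts are higher or lower in 3 of 3 samples against 3 of 3, without overlap. With 3 samples per line, no test for single values far from their group was made.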

How the results depend on the processing

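Of the 51 calls on members over the 6 comparisons, 30 were kept in all 21 settings, 21 were lost in at least 1, each of them when a library was left out, and 0 changed sign. Of 29 calls on the 6 other named genes 25 were kept. With an absolute difference of at least 1 required, the changed members were 2, 0, and 4 in the *ptgs1*, *ptgs2*, and *ptges* knockouts against scramble cells, and 2 and 2 in the *ptgs2* and *ptges* knockouts against *ptgs1*-KO cells. The changed genes of all tested were 140, 111, and 219 against scramble, 278 and 361 against *ptgs1*-KO cells, and 195 in *ptges*-KO against *ptgs2*-KO cells. Quantile normalization gave 1570 changed genes in place of 1045 in *ptgs1*-KO cells, and median ratio scaling 1927 in place of 1257 in *ptgs2*-KO cells. With length and GC trends removed, 9 members in place of 5 differed in *ptges*-KO against *ptgs2*-KO cells, the 5 kept and *Fzd2*, *Fzd6*, *Tcf7l1*, and *Wnt5a*, all higher in *ptges*-KO cells, gained.

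With each library left out in turn, the changed members numbered 3 to 8 in *ptgs1*-KO (lowest without *ptgs1*-KO replicate 2), 3 to 7 in *ptgs2*-KO (without *ptgs2*-KO replicate 1 or 3), and 5 to 11 in *ptges*-KO cells (without scramble replicate 3 or *ptges*-KO replicate 2). They numbered 11 to 15 between *ptgs2*-KO and *ptgs1*-KO, 5 to 14 between *ptges*-KO and *ptgs1*-KO (lowest without *ptges*-KO replicate 2, and 6 without *ptgs1*-KO replicate 1 or *ptges*-KO replicate 3), and 5 to 7 in *ptges*-KO against *ptgs2*-KO cells. Changed genes of all tested ranged from 639 to 1161, 721 to 1552, and 1945 to 3271 against scramble (lowest without scramble replicate 1, scramble replicate 1, and *ptges*-KO replicate 2), from 1991 to 2835 and 2302 to 3564 against *ptgs1*-KO cells, and from 1107 to 2236 in *ptges*-KO against *ptgs2*-KO cells (lowest without *ptges*-KO replicate 2). The cause was not tested.

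Deviations from the group means were correlated over 0.1 in 5 of 18 same-numbered pairs (r = -0.341 to 0.566). This count cannot decide whether replicate numbers pair the samples. For equal numbers, r was 0.311 between *ptges*-KO and *ptgs2*-KO, 0.129 between *ptgs1*-KO and *ptgs2*-KO, and 0.0696 between *ptges*-KO and *ptgs1*-KO cells. Between scramble cells and the *ptgs1*, *ptgs2*, and *ptges* knockouts it was -0.0164, -0.186, and -0.234. With the replicate number as a block, 8, 7, and 8 members in place of 6, 6, and 9 changed against scramble cells, 15, 9, and 5 in place of 15, 10, and 5 between knockouts, and 15 in place of 14 over the 4 lines. Genes of all tested numbered 1105, 1365, and 3099 against scramble and 2771, 3561, and 2011 between knockouts. At the estimated depth, no member under the filter had more than about 23.9 reads in a sample, which limits how small a difference can be seen.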
